A study of Danio rerio with 18 samples.

Results

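The genes described here are those of the mitochondrial respiratory chain and ATP synthase, taken as every gene whose symbol begins with ndufa, ndufb, ndufc, ndufs, ndufv, sdha, sdhb, sdhc, sdhd, uqcr, cox4, cox5, cox6, cox7, cox8 or atp5. Of the 31388 genes counted, 107 fit these prefixes, and 105 of them had enough reads to be tested, among 23367 tested genes in all. By function they comprised 8 core and 30 accessory subunits of complex I, 4 genes of the ndufa4 family, 6 genes of complex II, 8 of complex III, 21 of complex IV, 19 of complex V and 11 assembly factors. The prefixes are thus not specific to subunits: the 11 assembly factors (the ndufaf and sdhaf genes and ATP5SL) help to build the complexes and are not part of the finished enzymes. The 2 genes that were not tested were NDUFA4L2 (1 of 2), with 0 to 12 reads per library, and SDHB (2 of 2), with 0 to 4 reads. A further 7 tested genes carry an older or provisional symbol in the count tables and now have a name that fits the prefixes. Among these only atpif1a, an ATP synthase inhibitor, was called in any comparison (below).

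The respiratory chain sits in the inner mitochondrial membrane. Complex I takes electrons from NADH and complex II takes them from succinate, complex III passes them on to cytochrome c, and complex IV gives them to oxygen. The proton gradient that complexes I, III and IV build is used by complex V, the ATP synthase. The core of complexes I, III, IV and V is encoded partly by the mitochondrial genome (mtDNA), whereas the genes described here are nuclear. Several subunits, above all those of complex IV, exist as paralogs that in mammals are used in different tissues.

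Total RNA was measured in whole zebrafish larvae at 5 days post fertilization (DPF), with 15 larvae pooled for each library and 3 libraries in each of 6 groups. All eggs were surface sterilized. In 4 of the groups the larvae were wildtype (WT) ABTL, which were kept germ-free (GF), conventionalized (CONVD) at 3 DPF with water from conventionally reared larvae, or kept from 3 DPF in a suspension of either Exiguobacterium ZWU0009 or Chryseobacterium ZOR0023, both commensals of zebrafish. The other groups were homozygous myd88-/- mutants (allele hu3568), which were GF or CONVD. MyD88 is the adaptor through which most Toll-like receptors signal. The mutant line had been outcrossed to ABTL, but mutant and WT larvae were not siblings, so that the genotype at myd88 cannot be told apart from other differences between the parents.

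The labels name the 3 libraries of a group as biological replicates, and every p-value rests on how far those pools varied. Library totals ranged from 6404744 to 23600976 counts, and the respiratory chain genes took between 0.854% and 1.07% of them. The first principal component of all genes held 55.6% of the variance and parted the 6 mutant from the 12 WT libraries. Chryseobacterium libraries 1 and 3, the shallowest, stood apart on the components after it, and the Chryseobacterium differences of named members are given below with and without them. The fit without them leaves 1 Chryseobacterium library, which is assumed to vary like the other groups. Reads of myd88 checked the genotype labels in part, since mutants still had transcripts: in GF larvae the level in CPM, the read count of a gene scaled to the TMM-adjusted total of its library, was 9.11 to 12.3 in WT and 3.09 to 3.81 in mutant pools, whereas in CONVD larvae the ranges met at 4.31 to 5.79 and 3.91 to 4.60. Levels below are CPM, differences are log2 values with their standard error (SE), and a gene was called when edgeR's adjusted p was below 0.05 and the change at least 1.3-fold, or 0.379 on the log2 scale. CPM are not divided by transcript length and are compared between groups, not between genes. In these whole larvae, fewer cells of a type and less RNA per cell cannot be told apart.

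The first question was whether microbes change respiratory chain genes in WT larvae. At the thresholds used 1 member was called over the 3 comparisons, and in none of them was the share of members called above that of all tested genes. CONVD larvae had 1 of 105 members called against GF larvae (0.952%, where 1.63% of all tested genes were called), Exiguobacterium larvae had 0 (against 0.757%) and Chryseobacterium larvae had 0 (against 1.51%). The 3 comparisons share the same GF pools. Before adjustment, 11 members had p below 0.05 in CONVD, 2 in Exiguobacterium and 12 in Chryseobacterium larvae, which is 10.5%, 1.9% and 11.4% of members where 10.7%, 9.27% and 11.2% of all tested genes had such p-values. DESeq2 called 1, 0 and 1 members. The median member differed from GF by 0.01 in CONVD, by -0.03 in Exiguobacterium and by 0.06 in Chryseobacterium larvae on the log2 scale. The median of all tested genes was 0.00 in each after rounding. With each library left out in turn, the member median in CONVD larvae ranged from -0.02 to 0.04. The 95% interval of the difference lay wholly inside a 1.3-fold change for 83, 81 and 71 of the 105 members in these comparisons.

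The called member was ATP5J2 (ENSDARG00000087461), named for subunit f of the ATP synthase. Its levels were 2.64, 3.02 and 4.04 CPM in the GF pools and 5.36, 5.92 and 5.61 CPM in the CONVD pools. Every CONVD pool lay above every GF pool, and the log2 difference was 0.81 (SE 0.18, 1.76-fold, edgeR adjusted p = 0.0057). The counts behind it were low, 24 to 39 reads per GF library and 63 to 142 per CONVD library. Without GF library 1 the difference was 0.67 with an adjusted p of 0.087, and after all libraries were thinned to the smallest total it was 0.33 with an adjusted p of 0.84. The Exiguobacterium pools held 4.05, 4.15 and 4.15 CPM and the Chryseobacterium pools 4.47, 4.70 and 5.70 CPM, the latter 0.61 above GF (SE 0.20, adjusted p = 0.14), or 0.55 without Chryseobacterium libraries 1 and 3 (adjusted p = 0.54). A second gene that now bears the name of subunit f, si:ch211-194i10.5, was not called in any comparison, and reads of near-identical copies may be shared between such genes.

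The accessory subunit ndufb11 of the membrane arm of complex I came next in CONVD larvae. It was at 30.6, 33.2 and 37.9 CPM in GF pools, at 46.4, 43.8 and 38.3 in CONVD pools and at 41.9, 41.8 and 49.0 in Chryseobacterium pools, and both colonized groups lay above GF without overlap. The log2 differences from GF were 0.33 (SE 0.08, adjusted p = 0.022) in CONVD and 0.38 (SE 0.09, adjusted p = 0.014) in Chryseobacterium larvae, just under the fold limit. Exiguobacterium pools, at 37.0, 35.2 and 33.5 CPM, overlapped the GF pools. The Chryseobacterium difference passed the fold limit, and was then called, under median-of-ratios size factors, without a filter on low counts and in DESeq2, and also when GF library 3 or Chryseobacterium library 1 or 2 was left out. It no longer passed the adjusted threshold without GF library 1 (0.31, adjusted p = 0.11), without Chryseobacterium library 3 (0.31, 0.088), without both Chryseobacterium libraries 1 and 3 (0.31, 0.29), with the compared groups fitted alone (0.39, 0.11) or after thinning (0.31, 0.25). The CONVD difference no longer passed it without GF library 1 (0.27, adjusted p = 0.16) or 2 (0.33, 0.080), without CONVD library 1 (0.29, 0.11) or 2 (0.32, 0.0997), with the compared groups fitted alone (0.34, 0.094) or after thinning (0.22, 0.54), and it passed both limits without GF library 3 or CONVD library 3.

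The complex IV subunit cox8a was likewise highest among WT larvae after Chryseobacterium. GF pools held 103, 108 and 108 CPM, CONVD pools 135, 121 and 111, Exiguobacterium pools 110, 108 and 103, and Chryseobacterium pools 134, 127 and 136. Chryseobacterium pools lay 0.31 above GF (SE 0.06, 1.24-fold, adjusted p = 0.0045), under the fold limit, and CONVD pools 0.20 above it (SE 0.06, adjusted p = 0.11). Without Chryseobacterium libraries 1 and 3 the former was 0.25 with an adjusted p of 0.22. Its paralog cox8b was at 10.1 ± 1.46 CPM (SD, n = 3) in GF, 11.9 ± 1.63 in CONVD and 11.9 ± 3.93 in Chryseobacterium larvae.

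The remaining members with the lowest p-values did not pass the adjusted threshold in these comparisons. In CONVD larvae they were ndufs5, an accessory subunit of complex I (0.25, adjusted p = 0.13), ndufa9b, another (-0.24, 0.14), and COX5B (2 of 3) of complex IV (0.17, 0.15). In Chryseobacterium larvae they were the complex I assembly factor ndufaf4 (0.73, 0.060), ndufa6 (0.28, 0.15) and ndufa4l (0.21, 0.16), which without libraries 1 and 3 were at 0.79, 0.27 and 0.05 with adjusted p of 0.22, 0.54 and 0.94. In Exiguobacterium larvae they were atp5g3a, which encodes the c subunit of the ATP synthase ring (-0.18, 0.22), the complex II membrane anchor sdhc (-0.23, 0.23), ndufa9b (-0.17, 0.56), atp5g1 (-0.15, 0.56), uqcrc2b of complex III (-0.15, 0.56) and the core subunit ndufs8a (-0.12, 0.58).

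**Figure D1:**
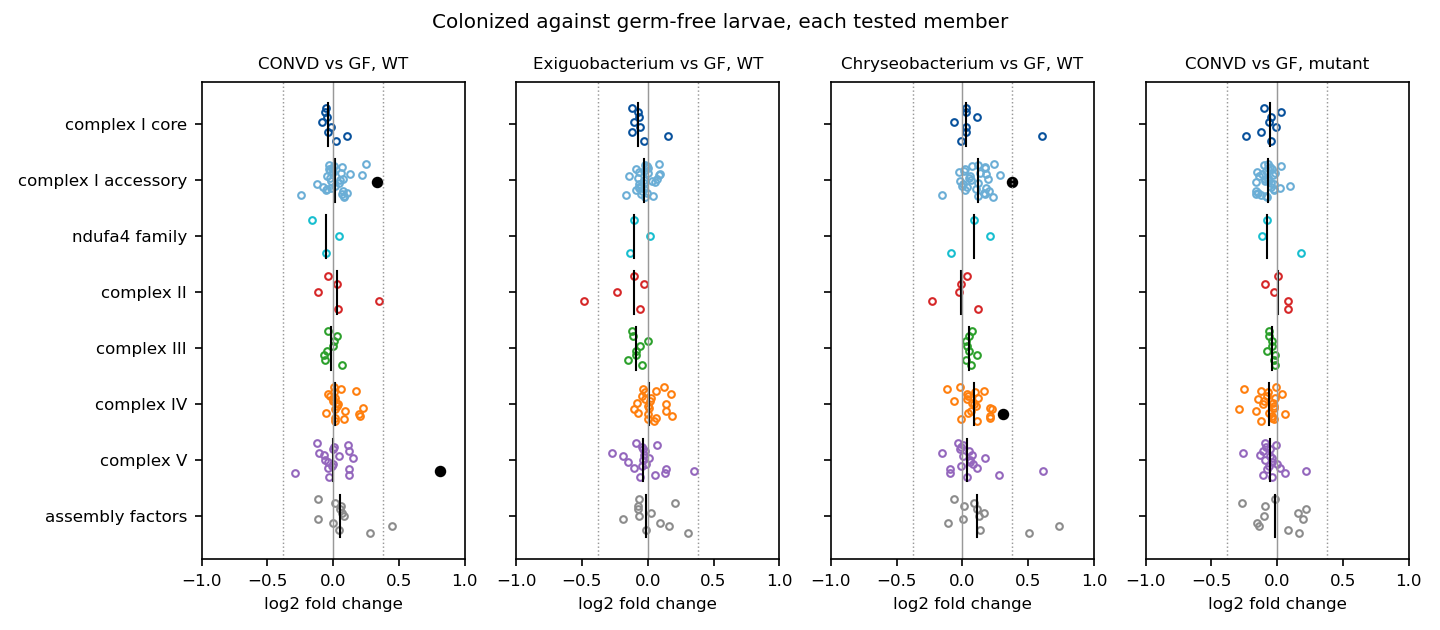
Log2 fold change of each tested member against GF larvae, in rows by complex, for CONVD, Exiguobacterium and Chryseobacterium WT larvae and for CONVD mutants. Open circles are genes, filled black circles have an adjusted p below 0.05, black bars are row medians and dotted lines mark 1.3-fold. The filled circles are ATP5J2 and ndufb11 in CONVD WT larvae and ndufb11 and cox8a in Chryseobacterium larvae.

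By complex, the signs of the Chryseobacterium differences changed when libraries 1 and 3 were both left out, a fit that rests on 1 Chryseobacterium library. With each library left out in turn the member median stayed positive, between 0.01 and 0.13. With all libraries 82 of 105 members had a positive difference (78.1%, against 49.7% of all tested genes), among them 8 of 8 in complex III (0.03 to 0.11), 26 of 30 accessory subunits of complex I (median 0.12), 12 of 19 in complex V (median 0.04) and 2 of 5 in complex II (median -0.01). The fit without libraries 1 and 3 had 38 of 105 positive (36.2%, against 49.1%), among them 1 of 8 in complex III, 10 of 30 accessory subunits of complex I, 8 of 19 in complex V and 1 of 5 in complex II. Its median over the members was -0.03 in place of 0.06. With all libraries, pools of 14 members lay wholly above GF (13.3%, against 5.92% of all tested genes) and of 0 members wholly below (against 7.11%). In Exiguobacterium larvae 37 of 105 differences were positive (35.2%, against 50.9% of all tested genes) and 68 were negative. With each library left out in turn, the Exiguobacterium member median lay between -0.05 and 0.002, and so did not keep its sign. By complex, 5 of 5 in complex II and 7 of 8 in complex III were negative, whereas 14 of 21 in complex IV were positive. Differences between complexes were not tested. Genes measured in the same pools are not independent replicates. Of the tissue markers measured, the gut epithelium gene anpepb (-0.75) and the ionocyte gene ca15a (-0.68) were called lower in Chryseobacterium larvae. These 2 values are from all libraries and were not examined without libraries 1 and 3. The part of these markers in the member values was not tested.

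In myd88 mutants, CONVD larvae had 0 of 105 members called against GF mutants, where 0.077% of all tested genes were called. Before adjustment 6 members had p below 0.05, and DESeq2 called 0. The member median was -0.06, with 86 of 105 differences negative, 27 of 30 among the accessory subunits of complex I, 8 of 8 in complex III (-0.08 to -0.01) and 19 of 21 in complex IV. Positive differences made up 18.1% of members, against 48.9% of all tested genes, and complex II had 3 of 5 positive. With each library left out in turn, the member median stayed between -0.08 and -0.03. CONVD pools lay wholly below GF pools for 19 members (18.1%, against 9.39% of all genes) and wholly above for 3 (2.86%, against 6.91%). The lowest p-values belonged to the complex II assembly factor sdhaf2 (0.20, adjusted p = 0.72), COX5B (2 of 3) (-0.12, 0.73), ndufb11 (-0.16, 0.74), ndufs8a (-0.12, 0.75), cox6c of complex IV (-0.14, 0.75) and ndufv3, a subunit of the NADH-oxidizing module of complex I (-0.16, 0.75). The 95% interval lay inside 1.3-fold for 84 members.

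Whether the response to conventionalization differed between the genotypes was tested directly, as the CONVD-to-GF change in mutants minus that in WT larvae. It was called for 1 of 105 members (0.952%, against 0.813% of all tested genes), which was ndufb11. In mutants ndufb11 was at 49.1, 52.2 and 50.8 CPM in GF pools and at 47.3, 45.9 and 42.3 in CONVD pools, so that CONVD pools were below GF pools in mutants and above them in WT larvae, without overlap in either. The difference between the responses was -0.50 (SE 0.11, 95% interval -0.73 to -0.27, adjusted p = 0.019). After thinning it was -0.57 and not called (adjusted p = 0.082). The call was lost when any one of 8 of the 12 libraries was left out, namely WT GF 1 or 2, WT CONVD 1 or 2, mutant GF 2 or 3, or mutant CONVD 2 or 3, with values from -0.50 to -0.43 and adjusted p from 0.051 to 0.10.

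Other members with low p-values for this difference were COX5B (2 of 3) (-0.29, adjusted p = 0.093), ndufs5 (-0.32, 0.31), ATP5J2 (-0.59, 0.48), atp5l, which encodes subunit g of the ATP synthase (-0.23, 0.52), and ndufaf4 (-0.58, 0.53). COX5B (2 of 3) was picked by its p-value in this same test and was not called, so its values do not stand for the other members. Its pools were at 146, 149 and 151 CPM in GF and 184, 164 and 155 in CONVD WT larvae, and at 183, 197 and 186 in GF and 175, 175 and 170 in CONVD mutants. The WT pools were higher and the mutant pools lower after conventionalization, with no overlap in either genotype. Over all members the median difference was -0.07 (0.0004 for all tested genes), and 30 of 105 were positive (28.6%, against 50.1%). Differences between complexes were not tested, and genes measured in the same pools are not independent replicates. In complex IV 20 of the 21 genes had a negative value (median -0.11), and 1 of 21 had p below 0.05 before adjustment. The complex I core had 4 positive and 4 negative, and 3 of 5 in complex II and 2 of 3 in the ndufa4 family were positive.

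**Figure D2:**
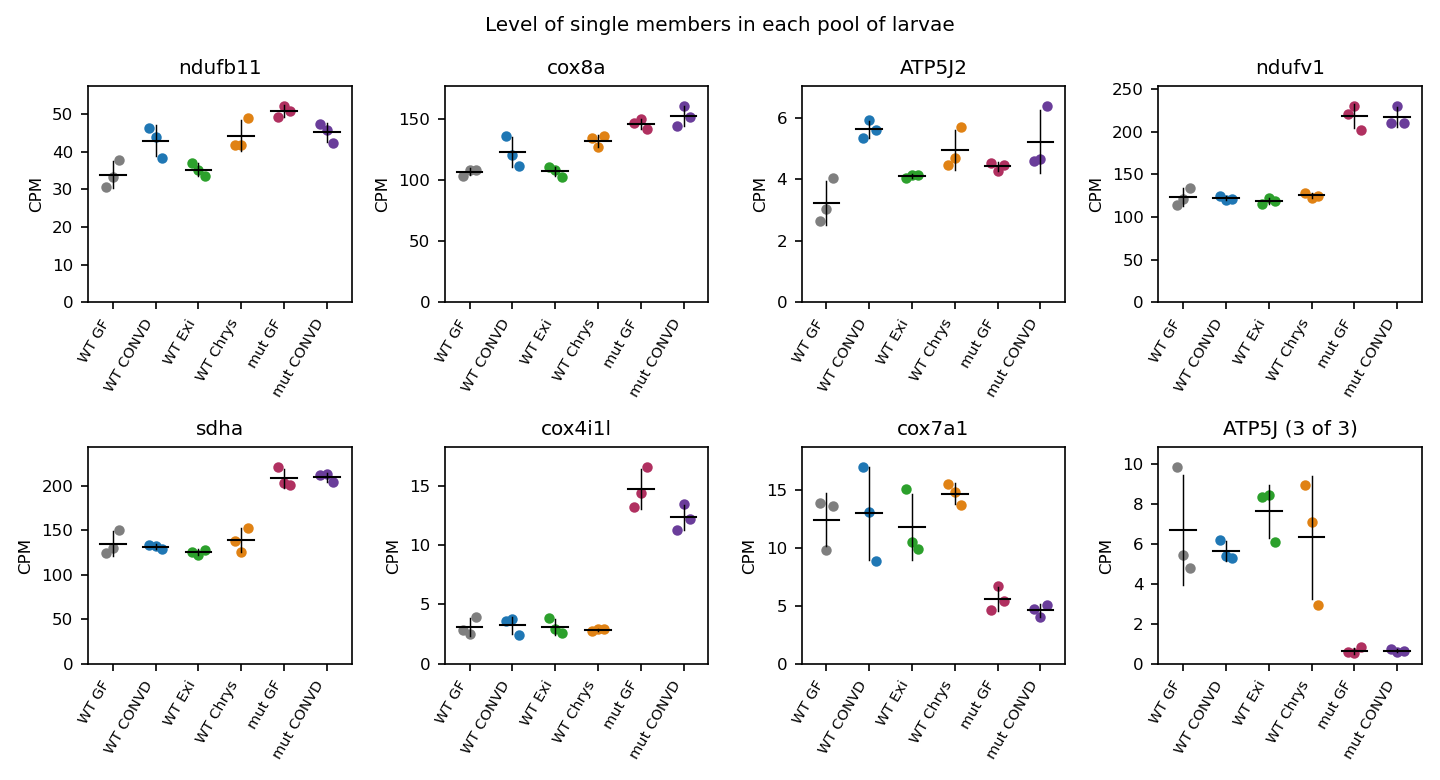
CPM of 8 members in each pool of larvae for the 6 groups (points), with the mean (horizontal bar) and SD (vertical line, n = 3). For ndufb11, cox8a and ATP5J2 the WT CONVD pools lie above the WT GF pools, and for ndufv1, sdha, cox4i1l, cox7a1 and ATP5J (3 of 3) the mutant pools stand apart from all WT pools.

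The next question was how mutants differed from WT larvae reared in the same way, a comparison in which 31.3% of all tested genes were called in GF and 29.7% in CONVD larvae. The CPM of all 107 members summed to 9031.5 ± 405 (SD, n = 3) in GF, 9069.9 ± 314 in CONVD, 8793 ± 155 in Exiguobacterium and 9358 ± 427 in Chryseobacterium WT larvae, and to 10576 ± 420 in GF and 10165 ± 126 in CONVD mutants. The lowest mutant pool, at 10033 CPM, lay above the highest WT pool, at 9791 CPM. In GF larvae 26 of 105 members were called (24.8%, below the 31.3% of all tested genes), 19 higher in mutants (18.1%, against 16.3%) and 7 lower (6.67%, against 15.1%). In CONVD larvae 23 were called (21.9%, against 29.7%), 15 higher (14.3%, against 15.2%) and 8 lower (7.62%, against 14.5%). The share of members called was thus not above that of all genes, and what distinguished the counts was their split, with fewer members lower in mutants.

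On the adjusted p alone, with no fold limit, 61 members differed in GF larvae (58.1%, against 44.6% of all tested genes) and 49 in CONVD larvae (46.7%, against 44.6%). The median member was 0.19 higher in GF mutants and 0.10 higher in CONVD mutants, whereas the median of all tested genes was -0.01 in each. With each library left out in turn these medians stayed between 0.16 and 0.23 and between 0.08 and 0.13. Mutant pools lay wholly above WT pools for 65 members in GF larvae (61.9%, against 26.8% of all genes) and for 47 in CONVD larvae (44.8%, against 28.5%), and wholly below for 9 (8.57%, against 26.2%) and 11 (10.5%, against 27.6%). Members had more reads than all tested genes (median 49.0 against 11.4 CPM). They also varied less within groups (median SD of log2 CPM 0.110 against 0.161). Both can raise the share of genes that pass an adjusted p or do not overlap, and their part in these shares was not tested. The GF and CONVD comparisons share no library. Of the 105 members, 91 had the same sign in both, 12 were called higher in both (63.2% of those called higher in GF and 80% in CONVD larvae), 7 were called lower in both (100% and 87.5%) and 0 were called in opposite directions. The same shares over all tested genes were not computed, so these counts do not set the members apart from other genes.

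**Figure D3:**
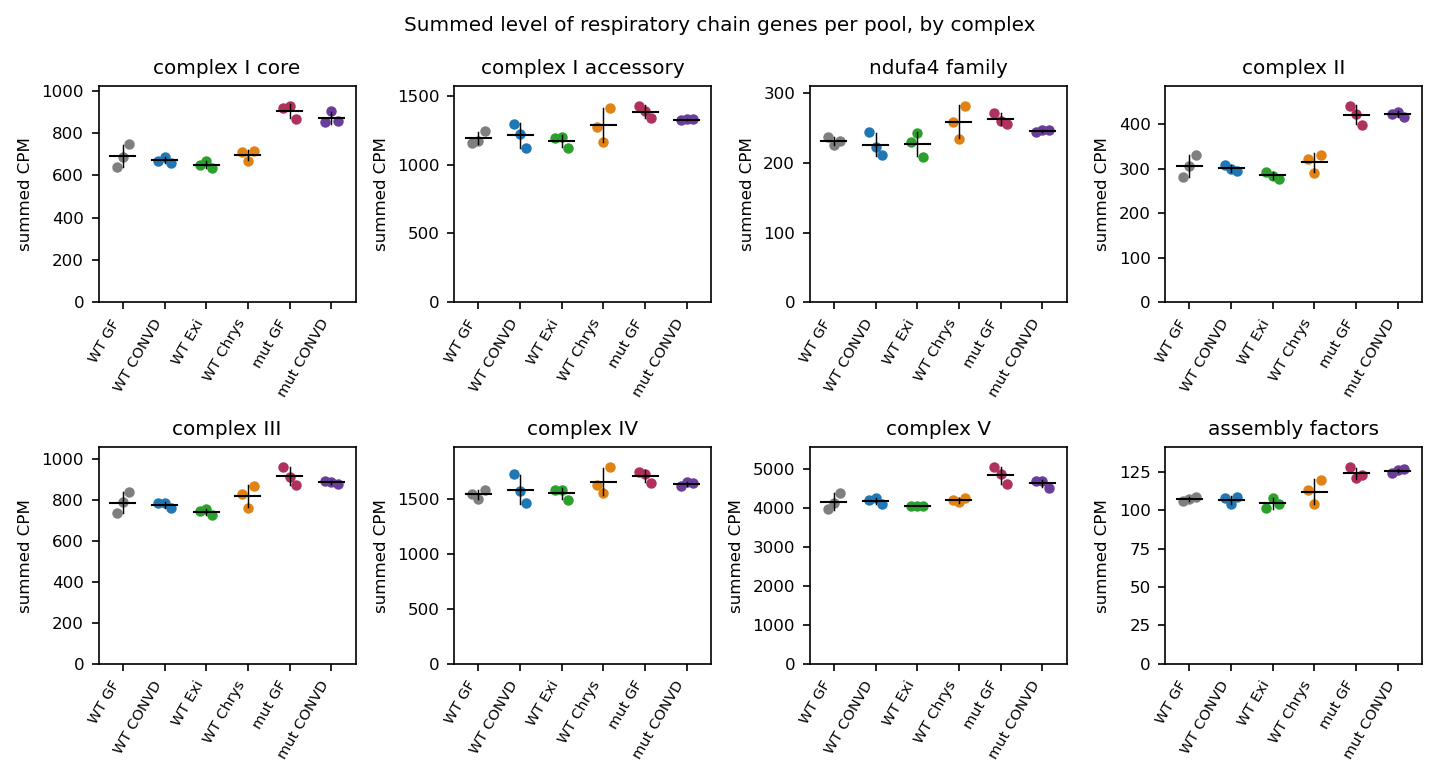
Summed CPM of the members of each complex in each pool (points), with the mean (horizontal bar) and SD (vertical line, n = 3), for the 6 groups. The mutant pools of complex I core subunits, complex II, complex III, complex V and the assembly factors lie above all WT pools, narrowly for complex III at 874 against 872 CPM and the assembly factors at 121 against 119.7 CPM, whereas those of complex I accessory subunits, the ndufa4 family and complex IV overlap with WT pools.

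Among the core subunits of complex I, ndufv1 had the lowest p-value of all members in both conditions. It encodes the subunit that binds NADH and the flavin cofactor. WT pools were at 114, 121 and 134 CPM in GF and at 125, 120 and 121 in CONVD larvae, and mutant pools at 221, 230 and 202 and at 210, 230 and 210. The 12 WT pools reached no more than 134 CPM and the 6 mutant pools no less than 202. The difference was 0.82 in GF (SE 0.06, adjusted p = 4.4e-12) and 0.83 in CONVD larvae (SE 0.06, adjusted p = 2.4e-12). The iron-sulfur subunit ndufs1, the core subunit with the most reads, was 0.25 higher in GF and 0.27 higher in CONVD mutants (adjusted p = 0.0017 and 0.00075), under the fold limit. The paralogs of the core subunit ndufs8 went apart: ndufs8a was at 116 ± 3.94 CPM in GF WT and 147 ± 2.94 in GF mutant larvae (0.34, adjusted p = 2.4e-05, under the fold limit), whereas ndufs8b fell by 0.93 in GF and by 1.27 in CONVD mutants (adjusted p = 0.022 and 0.00082). The ndufs8b values rest on 6 to 43 reads per library, and its call in GF larvae was lost without WT GF library 3 or mutant GF library 1 or 2 (adjusted p = 0.051 to 0.11). Summed over the core subunits, pools ranged from 641 to 747 CPM in GF WT and from 868 to 929 in GF mutant larvae.

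Of the 30 accessory subunits of complex I, 27 had positive differences in GF larvae (90%, against 49.1% of all tested genes). In CONVD larvae 22 were positive (73.3%, against 49.2%). The calls, 4 and 2, were all higher in mutants, a share below the 16.3% and 15.2% of all tested genes called higher. The paralogs ndufab1a and ndufab1b encode the mitochondrial acyl carrier protein. Pools of ndufab1a were at 37.0, 36.4 and 43.8 CPM in GF WT and at 59.5, 55.0 and 54.7 in GF mutant larvae, without overlap, and the difference was 0.53 in GF and 0.57 in CONVD larvae (adjusted p = 1.0e-06 and 1.2e-07). Its paralog ndufab1b was 0.40 higher in GF mutants (called, adjusted p = 0.00026) and 0.28 higher in CONVD mutants (adjusted p = 0.0050, under the fold limit). The GF difference was under the fold limit without WT GF library 1 (0.30), mutant GF library 1 (0.35) or mutant GF library 3 (0.38). Called in GF larvae alone were also ndufb11 (0.58, SE 0.08, adjusted p = 1.2e-06, against 0.08 in CONVD larvae, adjusted p = 0.40) and ndufv3 (0.49, against 0.26), and in CONVD larvae alone ndufa9b (0.39, against 0.27 in GF larvae), a call that was lost without WT CONVD library 1 (0.35) or mutant CONVD library 1 (0.36), with the compared groups fitted alone (0.37) and after thinning (0.25, adjusted p = 0.14). The paralog ndufa9a stood 0.28 and 0.30 higher, under the fold limit. Between these 2 conditions only the ndufb11 difference passed the test of the difference itself, given above. The accessory subunits with the most reads, ndufa10 and ndufb8, were 0.30 and 0.35 higher in GF and 0.32 and 0.27 higher in CONVD mutants, under the fold limit with adjusted p of at most 0.0044. In the ndufa4 family, whose founding member has in mammals been reassigned from complex I to complex IV, 0 of 3 tested genes were called in either condition. In each condition 1 of 3 had an adjusted p below 0.05 but lay under the fold limit.

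Complex II, which also works in the citric acid cycle and has no mtDNA-encoded subunit, had 5 of 5 tested members with positive differences in both conditions. Among all tested genes 49.1% were positive in GF and 49.2% in CONVD larvae. The flavoprotein subunit sdha was at 124, 130 and 151 CPM in GF and 134, 132 and 129 in CONVD WT pools, and at 221, 204 and 201 and at 212, 213 and 204 in mutant pools. All mutant pools lay above all WT pools, by 0.63 in GF (SE 0.07, adjusted p = 6.5e-09) and by 0.67 in CONVD larvae (SE 0.06, adjusted p = 1.3e-09). The iron-sulfur subunit sdhb was 0.40 higher in CONVD mutants (called, adjusted p = 1.0e-05), with 67.5, 64.4 and 64.7 CPM in WT and 87.2, 87.4 and 85.2 in mutant pools. The anchor subunits were higher under the fold limit, sdhc by 0.23 and 0.32 and sdhdb by 0.36 and 0.24 in GF and CONVD larvae (adjusted p of at most 0.015), and sdhda, at 2 to 22 reads per library, did not pass the test. The summed level of complex II was 305 ± 25.3 CPM in GF and 301 ± 7.58 in CONVD WT larvae, and 421 ± 21.5 and 422 ± 6.42 in mutants.

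In complex III only uqcrfs1, the Rieske iron-sulfur protein, was called. Its pools were at 129, 165 and 171 CPM in GF WT and at 209, 204 and 200 in GF mutant larvae, and it was 0.40 higher in GF and 0.38 higher in CONVD mutants (adjusted p = 2.5e-05 and 4.3e-05). Both values lie at the fold limit, and the GF difference was under it without WT GF library 1 (0.28) or mutant GF library 1 (0.38) and after thinning (0.37). The CONVD call was the less stable, and was lost in 7 of 13 alternatives, with values of 0.32 after thinning and otherwise 0.36 to 0.38. The core protein uqcrc1, the other member with most reads, was 0.24 and 0.20 higher, under the fold limit (adjusted p = 0.0023 and 0.0081). Of the 8 members 7 were positive in each condition (87.5%, against 49.1% of all tested genes in GF and 49.2% in CONVD larvae).

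Complex IV had the most called members by count and the most that were lower in mutants. Of its 21 members, 5 were higher and 4 lower in GF and 3 higher and 4 lower in CONVD mutants. Among all tested genes 16.3% and 15.2% were called higher and 15.1% and 14.5% lower. By share, more of the 11 assembly factors were called, with 5 higher and 1 lower in each condition. The isoform gene cox4i1l rose most of all members. It was at 2.82, 2.52 and 3.93 CPM in GF and 3.57, 3.75 and 2.43 in CONVD WT pools, and at 13.2, 14.4 and 16.6 and at 11.3, 13.5 and 12.2 in mutant pools. No WT pool reached 4 CPM and no mutant pool was under 11, and the difference was 2.24 in GF (SE 0.17, 4.71-fold, adjusted p = 9.3e-12) and 1.92 in CONVD larvae (SE 0.15, 3.78-fold, adjusted p = 1.9e-11). The main isoform gene cox4i1 did not pass the test, with 246 ± 4.19 CPM in GF WT and 259 ± 5.58 in GF mutant larvae (0.08, adjusted p = 0.32). The gene cox4i2, whose mammalian counterpart is induced at low oxygen, fell by 0.61 in GF and by 0.54 in CONVD mutants (adjusted p = 0.0054 and 0.0089). After thinning its CONVD difference was -0.45 and not called (adjusted p = 0.082).

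The genes whose mammalian counterparts are the isoforms of heart and skeletal muscle did not move as a group. Pools of cox7a1 were at 13.9, 9.82 and 13.7 CPM in GF and 17.001, 13.1 and 8.90 in CONVD WT larvae, and at 4.66, 6.72 and 5.45 and at 4.71, 4.04 and 5.09 in mutants. The mutant pools lay below the WT pools, and the difference was -1.17 in GF (SE 0.23, adjusted p = 0.00059) and -1.47 in CONVD larvae (SE 0.22, adjusted p = 4.4e-05). The gene cox6a2 fell by 0.53 in GF and by 0.68 in CONVD mutants (adjusted p = 0.018 and 0.0013), the first of which was lost without WT GF library 3 (-0.37, adjusted p = 0.14) or mutant GF library 3 (-0.49, adjusted p = 0.052). In contrast cox8b rose by 0.63 and 0.38 (adjusted p = 0.00081 and 0.020), the second of which lies at the fold limit. The alternatives were not examined for cox8b, nor for the assembly factors sdhaf3 and ATP5SL. In GF larvae they were also not examined for cox5b2, ATP5J2, sdhaf1 and sdhaf4. The paralogs of more reads, cox7a2a and cox6a1, did not pass the test in either condition, while cox8a was called in GF (0.45, adjusted p = 7.2e-07) and stood 0.31 higher in CONVD mutants (adjusted p = 9.1e-05, under the fold limit).

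The other called members of complex IV were cox6b1 and copies of COX5B. For cox6b1, which in mammals lies at the contact between complex IV monomers, pools were at 42.1, 40.4 and 45.1 CPM in GF WT and 67.2, 66.7 and 59.2 in GF mutant larvae, and it was 0.60 and 0.50 higher in GF and CONVD mutants (adjusted p = 4.2e-06 and 2.4e-05), whereas cox6b2 differed by 0.14 and 0.12 (adjusted p = 0.050 and 0.099). COX5B (1 of 3) fell by 0.47 and 0.48 (adjusted p = 0.00012 and 3.9e-05), from 23.5, 23.9 and 24.8 CPM in GF WT to 16.8, 18.4 and 16.9 in GF mutant pools. Its GF call was lost after thinning (-0.37, adjusted p = 0.051). The copy cox5b2 was 0.54 higher in GF mutants (called, adjusted p = 0.0017) and 0.29 higher in CONVD mutants (adjusted p = 0.049), and COX5B (2 of 3) was 0.34 and 0.05 higher. Reads of such close copies may be split between them, so the values of the single copies are less certain than those of other genes.

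**Figure D4:**
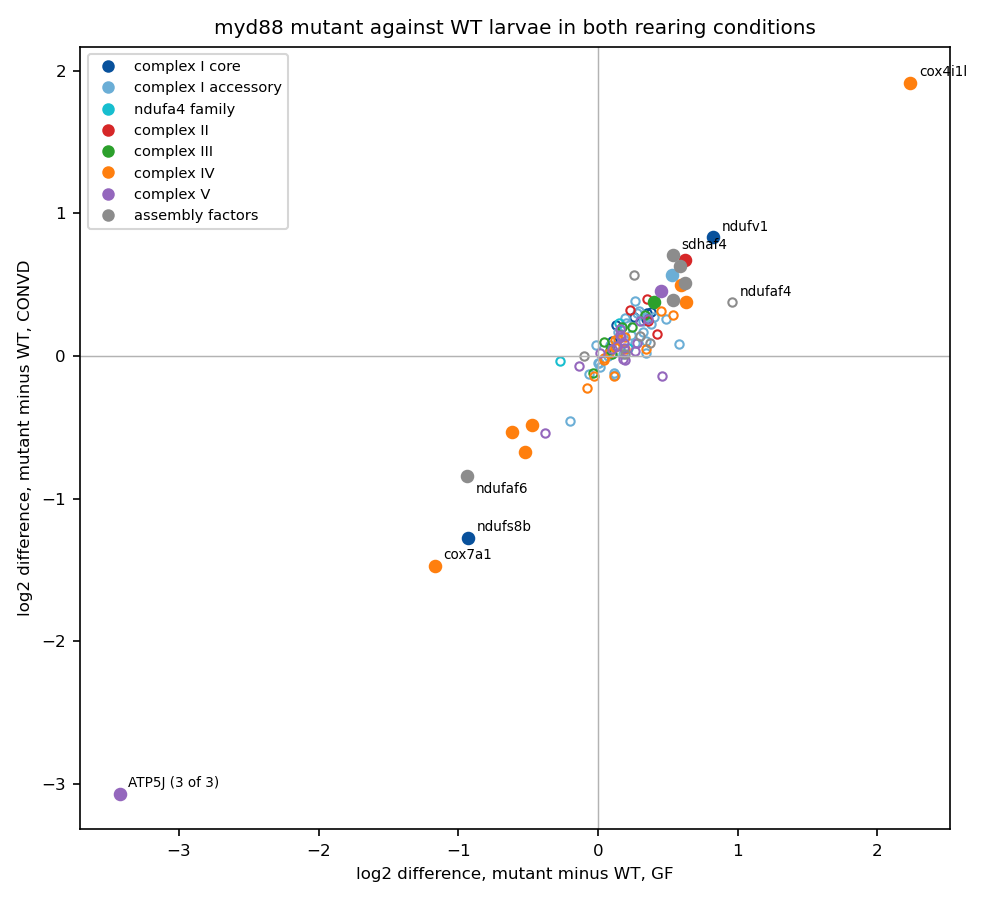
Log2 difference between mutant and WT larvae for the 105 tested members, in GF (horizontal) and CONVD larvae (vertical), coloured by complex. Filled circles were called in both conditions and open circles were not. The medians are 0.19 in GF and 0.10 in CONVD larvae, cox4i1l lies farthest up at 2.24 and 1.92, and ATP5J (3 of 3) farthest down at -3.42 and -3.07.

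In complex V the largest difference of all members belonged to ATP5J (3 of 3) (ENSDARG00000089853), a copy of the gene for coupling factor 6. Its pools were at 9.82, 5.42 and 4.76 CPM in GF and 6.21, 5.38 and 5.29 in CONVD WT larvae, and at 0.567, 0.517 and 0.821 and at 0.721, 0.577 and 0.657 in mutants. The mutant pools, with 8 to 13 reads per library, lay below all WT pools, the lowest of which was a Chryseobacterium pool at 2.92 CPM, and the difference was -3.42 in GF (SE 0.40, 10.7-fold lower, adjusted p = 1.6e-06) and -3.07 in CONVD larvae (SE 0.38, 8.39-fold lower, adjusted p = 3.2e-06). The other copies were far from this: atp5j differed by 0.13 and 0.07 (adjusted p = 0.21 and 0.50) and ATP5J (2 of 3) by -0.13 and -0.07 (adjusted p = 0.049 and 0.31).

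The c subunit of the rotor ring is encoded by 3 of the members. For atp5g1, pools were at 158, 173 and 196 CPM in GF WT and at 261, 239 and 220 in GF mutant larvae, and it was 0.45 higher in both conditions (adjusted p = 1.6e-05 and 1.3e-05). Its counterparts atp5g3a (0.36 and 0.26) and atp5g3b (0.19 and 0.06) stayed under the fold limit. The catalytic subunits atp5b and atp5a1 were the members with most reads in the complex: atp5b was at 1158 ± 79.6 CPM in GF WT and 1427 ± 71.3 in GF mutant larvae (0.30, adjusted p = 1.4e-05, and 0.25 in CONVD larvae), and atp5a1 differed by 0.18 and 0.09 (adjusted p = 0.0031 and 0.14). ATP5J2 was called higher in GF mutants (0.46, adjusted p = 0.045), where the WT GF pools were its lowest. In CONVD mutants it differed by -0.14 and was not called. The gene atp5s, named for factor B of the synthase, was called lower in CONVD mutants (-0.54, adjusted p = 0.0083).

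Among the 11 assembly factors 5 were called higher and 1 lower in each condition. The shares of all tested genes called higher were 16.3% in GF and 15.2% in CONVD larvae. For complex II they were sdhaf1 (0.59 and 0.63), sdhaf3 (0.54 and 0.39) and sdhaf4 (0.54 and 0.71) in both conditions and sdhaf2 in CONVD larvae (0.57, adjusted p = 1.0e-05, against 0.26 in GF). After thinning the CONVD calls of sdhaf1 (0.45, adjusted p = 0.13) and sdhaf4 (0.34, adjusted p = 0.22) were lost. Pools of sdhaf4, a chaperone of the flavinylated sdha protein, were at 5.00, 6.55 and 7.77 CPM in GF WT and 9.58, 8.34 and 9.999 in GF mutant larvae, without overlap. The complex I factor ndufaf4 was 0.96 higher in GF mutants (adjusted p = 8.6e-05) and 0.38 higher in CONVD mutants (adjusted p = 0.047, just under the fold limit). In contrast ndufaf6 fell by 0.94 and 0.84 (adjusted p = 0.00085 and 0.00068). After thinning its GF difference was -0.32 and not called (adjusted p = 0.48). ATP5SL, now named dmac2 and also a complex I factor, was 0.62 and 0.51 higher. It lies outside the rule by which genes were named and is added because it completes the calls.

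The 13 subunits encoded by mtDNA had no such calls. None of the 13 was called in any of the 7 comparisons, and their summed level was 42915 to 44224 CPM in GF WT pools, 40803 to 44298 in CONVD WT pools, 44599 to 45239.9 in GF mutant pools and 43046 to 44091 in CONVD mutant pools. Of all tested genes 31.3% were called between genotypes in GF and 29.7% in CONVD larvae. For mt-atp8 the spread was wide (-0.50, SE 0.34 in CONVD mutants), so its lack of a call does not show a lack of change. Outside the genotype comparisons, between 0 and 2 of 13 had p below 0.05 before adjustment, where 6.61% to 11.2% of all tested genes did. In each genotype comparison 2 of 13 did, where 51.3% of all tested genes did in GF and 51% in CONVD larvae. Both passed the adjusted threshold at small size, mt-co1 with 0.14 in GF and 0.18 in CONVD mutants (adjusted p = 0.0085 and 0.00061) and mt-nd4 with -0.14 and -0.10 (adjusted p = 0.0042 and 0.035). The list median was 0.02 in GF and -0.04 in CONVD larvae, against 0.19 and 0.10 for the nuclear members. The difference between these medians was not tested.

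Among nuclear genes that make or serve the chain, nearly all calls were in the higher direction in mutants, where 16.3% of all tested genes were called higher in GF and 15.2% in CONVD larvae. Of 40 tested assembly factors outside the prefixes, 19 were called higher and 1 lower in GF and 17 higher and 0 lower in CONVD mutants (47.5% and 42.5% higher). They were led by foxred1, a complex I factor (1.35 and 1.60), and ttc19, a complex III factor (0.91 and 1.00), with cox11 (0.86) and cox17 (0.71), which deliver copper to complex IV, in GF larvae and cox14 (1.19) and hccsb (0.60) in CONVD larvae. Of 16 further components, a list that also held carrier genes (slc25a) and complex III assembly genes (uqcc), 6 and 5 were called (37.5% and 31.2%), all higher. Among them were cyc1, the cytochrome subunit of complex III (0.46 and 0.46), dhodh in GF larvae (0.63) and uqcc3 in CONVD larvae (0.73). Also called were etfdh (0.51 and 0.49) and etfb (0.40 and 0.48), which feed electrons from fatty acid oxidation into the chain. Of 76 mitochondrial ribosomal proteins 31 and 17 were called (40.8% and 22.4%), all higher, led by mrpl21 (0.77 and 0.75). Of 14 regulators of mitochondrial biogenesis 5 and 6 were called (35.7% and 42.9%), all higher, with the coactivators ppargc1b (0.88 and 0.86) and pprc1 (1.44 and 1.23) and the mtDNA transcription factor tfb2m (0.64 and 0.66). The list medians in GF and CONVD larvae were 0.38 and 0.29 for the assembly factors, 0.27 and 0.21 for the further components, 0.34 and 0.23 for the ribosomal proteins and 0.26 and 0.25 for the regulators, against -0.01 for all tested genes in each. The ATP synthase inhibitor atpif1a was 0.57 higher in GF mutants (called, adjusted p = 0.00032) and 0.28 higher in CONVD mutants (adjusted p = 0.034).

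Other parts of energy metabolism had calls in both directions, with list medians of 0.15 in each condition for the citric acid cycle and of 0.03 and 0.13 for glycolysis. Of 19 genes of the citric acid cycle 2 were called higher and 1 lower in GF and 2 higher and 2 lower in CONVD mutants (10.5% higher in each, below the share of all genes), where suclg2 rose (0.82 and 0.74) and idh3a fell (-0.50 and -0.56). Of 32 glycolytic genes 5 were called higher and 2 lower in GF and 4 higher and 1 lower in CONVD mutants (15.6% and 12.5% higher, also below it), with pgam1a (0.77 and 0.69) and hk1 (0.40 and 0.51) higher. In the 4 comparisons of colonized with GF larvae and in the difference between responses, the one gene of these lists that was called was mrps6 in CONVD WT larvae (0.54, adjusted p = 0.047). That call was lost in 9 of 13 alternatives.

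**Figure D5:**
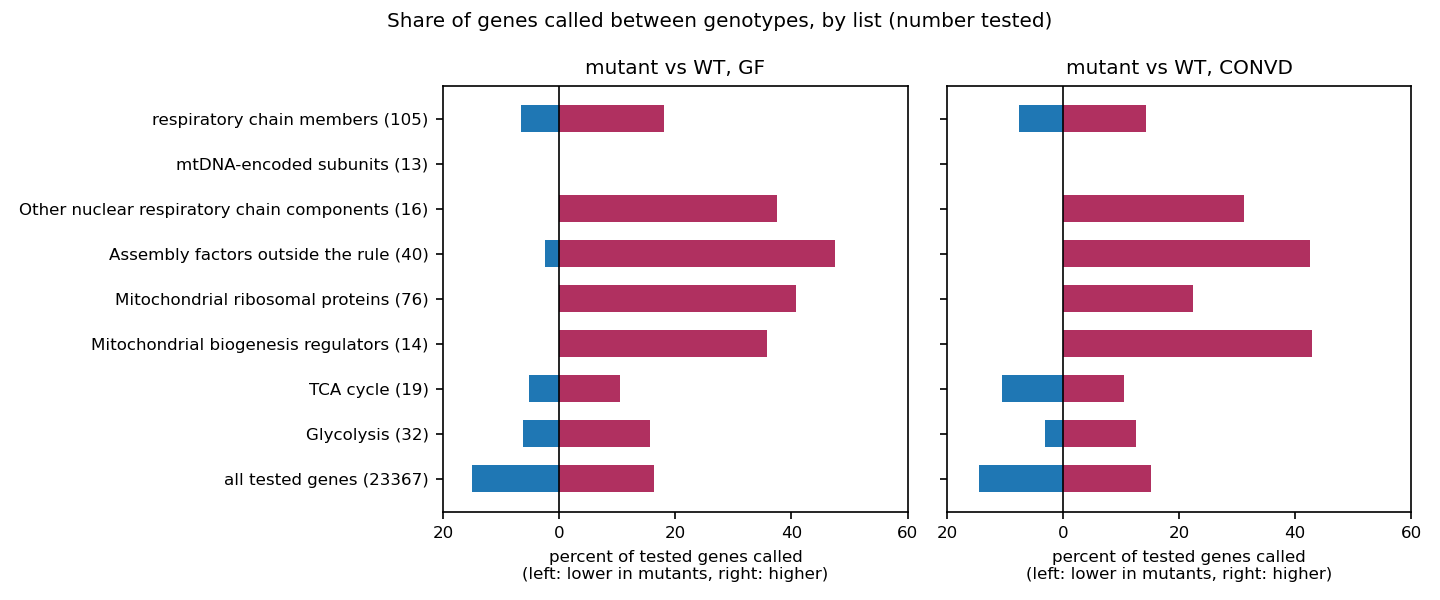
Percent of the tested genes of each list called higher (right, red) or lower (left, blue) in mutants than in WT larvae, for GF (left panel) and CONVD larvae (right panel), with the number tested after each name. No mtDNA-encoded subunit was called. Of the calls among assembly factors, mitochondrial ribosomal proteins, biogenesis regulators and other chain components all but 1 were in the higher direction, whereas those among all 23367 genes were split between both directions.

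Markers of several tissues moved with the genotype too. Among all tested genes 16.3% were called higher in GF and 15.2% in CONVD mutants, so a few calls in a short list do not set it apart. Of the gut epithelium markers 8 of 8 were called higher in GF and 6 of 8 in CONVD mutants, and their summed level rose from 2451 to 3128 CPM in GF WT pools to 5031 to 5383 in GF mutant pools, and from 2613 to 3100.0 to 4081 to 4459.9 in CONVD larvae. Liver markers were called higher in 6 of 9 in each condition (1673 to 2338 against 2927 to 3125 CPM in GF pools, and 1663 to 2101 against 2383 to 2756 in CONVD pools). Markers of ionocytes were called higher in 5 of 7 in each (265 to 299.9 against 426 to 447 CPM in GF pools, and 262 to 279 against 402 to 408 in CONVD pools). Exocrine pancreas markers were called higher in 3 of 7 in GF and 0 of 7 in CONVD mutants. Heart markers were called higher in 2 of 8 in each, both natriuretic peptide genes. One of these, nppb, had a mean of 0.77 CPM and as few as 2 reads in a library.

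Other tissue markers were lower or hardly moved. Among all tested genes 15.1% were called lower in GF and 14.5% in CONVD mutants. Photoreceptor markers were called lower in 5 and higher in 1 of 7 in GF and lower in 4 and higher in 1 of 7 in CONVD mutants (7811 to 8280.0 against 5348 to 5552 CPM in GF pools, and 7636 to 8318 against 5549 to 5837 in CONVD pools). Red blood cell markers were called lower in 3 and 4 of 6 (2209 to 4094 against 1677 to 2045 CPM in GF pools, and 2351 to 3095 against 1693 to 1785 in CONVD pools). Of the neuronal markers elavl3 alone was called lower, 1 of 7 in each. Their summed level was lower in mutants without overlap (2053 to 2269 against 1772 to 1839 CPM in GF pools, and 2063 to 2151 against 1816 to 1858 in CONVD pools). Of the 12 skeletal muscle markers 1 was called lower in GF and 0 in CONVD mutants, with 54909 to 57440 against 50440 to 53396 CPM in GF pools and 54027 to 55850 against 52590 to 53734 in CONVD pools. No marker list was at 0 in any pool. The part of these tissues in the respiratory chain differences was not tested.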

How the data were processed

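Whole-larva RNA libraries that do not mark the strand were sequenced by the authors from 1 end for 50 nucleotides and mapped to GRCz10 with the GeneTiles server. The processing notes name Bowtie2, SAMtools and DESeq. Which versions were run is not given in the sources used here. Read counts per gene are what the authors deposited, with 1 table per library. For 9 of the tables the deposited column was treated as one of estimated counts, only because an unnamed last entry is not a whole number. That entry was left out, and all gene values are whole counts. The analysis used edgeR 4.0.16 under R 4.3.3, with DESeq2 1.42.0 as an alternative. Genes were filtered with filterByExpr (minimum count 10, minimum total 15), normalized by TMM and fitted with 1 coefficient per group over 18 libraries, with robust quasi-likelihood F-tests for 7 contrasts and Benjamini-Hochberg adjustment over all tested genes. CPM used TMM library sizes. Fits were tested on simulated data. Figures were drawn with Python 3.11.15, pandas 2.3.3 and matplotlib 3.10.9.

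The members and gene lists were chosen with earlier results of these data known. Genes named with values were, in each comparison, the called members with the lowest p (at most 12 per direction), or the 6 with the lowest p where fewer than 6 were called, with their paralogs, the 2 members with most reads in each complex, and up to 4 called genes of each list. Of the 107 members, 103 had a newer name in the table of gene names, which was used for names only. Alternatives were median-of-ratios (RLE) size factors, DESeq2, no filter, no fold limit, only the groups compared, a block for the replicate number, and fits that left out each library in turn. Thinning to the smallest total, 6404744 counts, and leaving out Chryseobacterium libraries 1 and 3 were chosen after seeing the data. Pools of a group varied more than counting alone gives, with a chi-square per degree of freedom of 1.64 to 5.46.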

Additional observations from a re-analysis of the deposited data

Results flagged for a closer look

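The response of ndufb11 to conventionalization differed between the genotypes by -0.498 on the log2 scale (mutant response minus WT response), with edgeR's adjusted p = 0.019. It was flagged because the test of the difference itself passed the threshold. It was the 1 call among 105 members (0.952%, against 0.813% of all tested genes). CONVD pools were above GF pools in 3 of 3 WT pools and below them in 3 of 3 mutant pools. That order comes from the libraries that gave the p-value and is no separate support. All 4 groups were compared within the same fit. The call was lost when any 1 of 8 of the 12 libraries was left out, and after thinning (-0.57, adjusted p = 0.082).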

How the results depend on the processing

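Of the 7 counts of called members, those of Exiguobacterium larvae and of mutant CONVD larvae were 0 under every alternative. The single call in CONVD WT larvae became 2 without the fold limit and 0 after thinning, and ranged from 0 to 2 with each library left out. In Chryseobacterium larvae the count went from 0 to 1 with RLE size factors, without the filter and in DESeq2, to 2 without the fold limit, and ranged from 0 to 1 with each library left out. The call for the difference between responses was 0 after thinning and ranged from 0 to 1 with each library left out. Between mutants and WT larvae the counts rose from 26 to 61 in GF and from 23 to 49 in CONVD larvae without the fold limit, fell to 18 and 15 after thinning, and ranged from 22 to 31 and from 20 to 23 with each library left out. After thinning, members with few reads (ndufs8b, ndufaf6, sdhaf4) and with many (atp5g1 at 0.37, sdhb at 0.38, both in CONVD larvae, and ndufab1a at 0.32 in GF larvae) lost calls, and the cause was not tested. No direction reversed in the 1589 alternatives of 119 named values, of which 1506 kept their side of the threshold, 72 lost it and 11 passed it. Nearly all these values were named for their low p-values in the same data. The alternatives reuse most libraries, and dropping the fold limit leaves the estimates unchanged. The lack of reversals is therefore no test of the directions.

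With the replicate number as a block, 1, 0, 0, 0, 1, 27 and 23 members were called in the 7 comparisons, and the mrps6 call was lost (adjusted p = 0.055). Deviations of libraries with the same number correlated between -0.0915 and 0.182, and in no comparison were all 3 above 0.1. Libraries with different numbers were not set beside them, so whether the number marks shared handling was not tested. The limits are 3 pools per group, which cannot give an exact permutation p below 0.1 for a single gene, low counts for ATP5J2, ndufs8b and ATP5J (3 of 3), close copies that may share reads, and a genotype that comes with other parents.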
